A study of Mus musculus with 18 samples.

Results

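The genes described here are 43 mouse genes of the interferon response, the immunoproteasome and the loading of class I molecules, in liver. They were taken as a named list of interferon-induced, GTPase, class I processing and immunoproteasome genes. The list was chosen with earlier results of these data known, so the shares of members called are descriptions of that list. All 43 were found among the 23532 genes of the table, and all 43 were among the 10356 genes tested, those with at least 1 RPKM (reads scaled to transcript length in kilobases and to the library's mapped reads) in at least 3 libraries. The study sequenced polyA RNA from whole liver of wild-type C57BL/6J mice, treated from 5 weeks of age and sampled at 62 weeks. There were 18 libraries in 6 groups of 3. On each diet, LF or HF, mice had no further treatment, CR (LF+CR and HF+CR) or Ex (LF+Ex and HF+Ex). The labels give only these abbreviations, which are commonly read as a low-fat (LF) or high-fat (HF) diet, alone, with caloric restriction (CR) or with exercise (Ex). All 6 groups share the strain and the wild-type genotype, and neither the sex of the mice nor whether each library came from 1 animal was given in the sources used here, so every p-value speaks for the spread among these libraries, which may be technical.

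Interferons are secreted proteins that warn cells of infection. Type I interferons signal through their receptor to a complex with Stat2 and Irf9 that binds the interferon-stimulated response element (ISRE) in promoters, and interferon gamma acts on promoters through the gamma-activated site (GAS). Their target genes include sensors of viral nucleic acid, proteins that block viral replication, large GTPases that attack pathogen vacuoles, chemokines that attract T cells, and the catalytic subunits that turn the proteasome into the immunoproteasome, which cuts peptides for class I molecules. In liver, hepatocytes, macrophages and infiltrating lymphocytes can all carry these transcripts, and in whole tissue fewer cells of a type and less RNA per cell cannot be told apart.

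Promoter windows of 300 bases, from 250 before to 50 after the transcription start, were available from RefSeq (GRCm38.p6) for 34 of the 43 genes. The ISRE core, which is GAAA repeated after any 2 bases, was searched on either strand and found in 18 of the 34 (52.9%), against 3.99% of all 27025 genes with a window. The GAS letters TTCNNNGAA, which read the same on both strands, were found in 10 of the 34 (29.4%), against 9.55% of all genes, and 6 held both; the letters of the 2 motifs can overlap. A match is a description of the letters only. The stretches below show how closely the matches sit to each other in 8 of the genes, with ISRE and GAS letters in capitals; they are given 5′ to 3′ on the gene's strand, and the start lies after the last base shown. They lie at chr4:156200850-156200921 (minus strand), chr19:34640760-34640838 (plus), chr3:142620579-142620638 (plus), chr11:48871421-48871475 (minus), chr11:58214877-58214947 (plus), chr11:58199486-58199555 (plus), chr11:48992289-48992359 (minus) and chr8:71537562-71537633 (minus).
Isg15: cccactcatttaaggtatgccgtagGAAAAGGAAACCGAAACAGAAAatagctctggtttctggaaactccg
Ifit1: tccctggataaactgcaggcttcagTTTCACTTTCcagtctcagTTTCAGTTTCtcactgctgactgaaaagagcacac
Gbp2: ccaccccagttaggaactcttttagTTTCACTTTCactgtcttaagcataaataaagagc
Irgm1: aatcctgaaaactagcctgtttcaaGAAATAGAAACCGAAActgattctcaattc
Irgm2: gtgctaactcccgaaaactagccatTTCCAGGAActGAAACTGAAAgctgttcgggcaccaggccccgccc
Igtp: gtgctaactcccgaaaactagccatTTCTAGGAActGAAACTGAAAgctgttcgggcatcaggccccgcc
Tgtp1: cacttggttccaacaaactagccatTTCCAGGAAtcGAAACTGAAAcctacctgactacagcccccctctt
Bst2: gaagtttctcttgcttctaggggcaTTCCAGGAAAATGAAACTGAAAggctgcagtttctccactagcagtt
Isg15, Ifit1, Gbp2 and Irgm1 held ISRE letters alone in the windows, in Ifit1 and Gbp2 on the other strand. Irgm2, Igtp and Tgtp1, GTPases encoded on chromosome 11, each held a GAS match 2 bases before an ISRE match. The windows of Igtp and Irgm2 shared a run of 61 identical letters. That run does not hold the pair of motifs, since the GAS letters of Igtp and Irgm2 differ. Bst2 held the same pair of motifs with the letters overlapping.

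Whole-series values that touch the results were as follows. Sequencing depth, estimated from the steps between low RPKM values, was 22 to 41.2 M reads per library. Ttr, a hepatocyte product, stood at 4393 to 7194 RPKM in all libraries, but Alb was listed at 0 in 14 libraries and at 30395.3 to 33218.3 RPKM in HF 1 and HF+Ex 1 to 3. Pancreas transcripts were high in LF+CR 1, LF+Ex 1 and HF+CR 1, and bile duct markers in LF 2 and HF+CR 3, so results are also given without them. Median-of-ratios scaling moved the median of all genes in LF+Ex against LF from -0.13 to 0.01 on the log2 scale; no other pairwise comparison moved by over 0.1. Several members have relatives, some close and some more distant, among which reads may be split. They are Tgtp1 and Tgtp2, Ifit1 and Ifit3 with their copies, Gbp2, Gbp3, Gbp6, Gbp7 and Gbp10, Oas1a and Oas1g, Igtp, Irgm2 and Iigp1, and the Trim30 family. Neither the likeness of their sequences nor the sharing of reads was measured.

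The genes were higher on the HF diet. Averaged over no treatment, CR and Ex, 33 of the 43 members passed the test and all 33 were higher on HF; over all genes tested, 14% were called higher and 9.69% lower. The median difference of the 43 was 0.66 in log2(RPKM + 1), against 0.02 over all genes. Ifit2, Xaf1, Oas1a and Tgtp1 reached 1 RPKM in 3 libraries only with HF-diet libraries counted, so they entered the test through that diet. The ubiquitin-like modifier Ubd, the chemokines Cxcl9 and Cxcl10 and the immunoproteasome subunit Psmb9 had the largest differences, of 2.97, 1.56, 1.48 and 1.34. The 10 members not called were Irf1, Irf7, Irf9, Stat2, Zbp1, Oas1a, Bst2, Psmb10, Tapbp and Nlrc5, which include all 4 transcription factors on the list. Between 31 and 34 members passed when any single library was left out. Bst2, at -0.44, joined the calls as a lower gene without LF 3, without HF+CR 3, without the bile duct libraries and with median-of-ratios scaling. With that scaling 34 members passed, the same 33 higher and Bst2 lower, while the calls over all genes went from 1452 higher and 1003 lower to 1394 and 1534. Differences throughout are fitted by limma on log2(RPKM + 1), ± their standard error, with p-values adjusted by Benjamini-Hochberg over all genes tested; this scale understates the change of low genes.

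**Figure D1:**
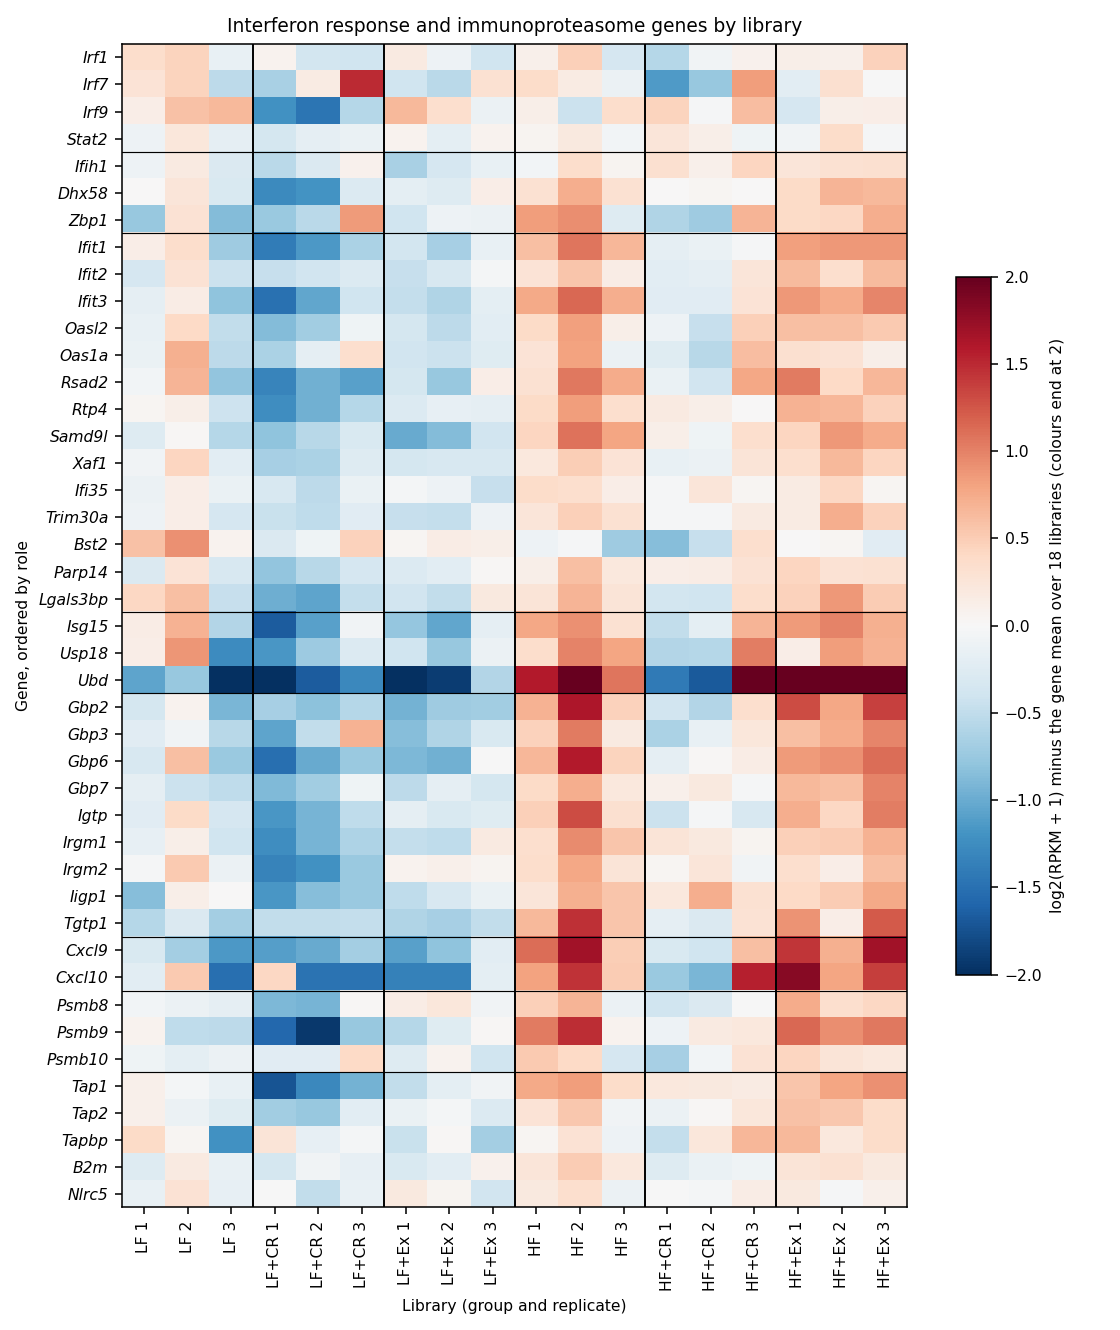
Log2(RPKM + 1) of each of the 43 genes (rows, ordered by role, with lines between roles) in each of the 18 libraries (columns, with lines between groups), minus that gene's mean over the 18 libraries. The HF and HF+Ex libraries are red for most genes, LF+CR 1 and LF+CR 2 are blue for most, and HF 2 is the highest of the 18 libraries for 22 genes.

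CR went with lower levels. Averaged over both diets, 12 members passed the test and all 12 were lower with CR (Dhx58, Ifit1, Ifit3, Rtp4, Xaf1, Lgals3bp, Gbp6, Igtp, Irgm1, Irgm2, Psmb9 and Tap1); over all genes 3.15% were called higher and 4.04% lower. The median difference of the 43 was -0.47, against 0.01 over all genes. Without LF+CR 1, 6 passed (Ifit1, Ifit3, Rtp4, Igtp, Irgm2 and Tap1); without LF+CR 2, 7 (the same 6 and Irgm1); without HF 2, 7 (the same 6 and Irf9). Without the 3 libraries with pancreas transcripts, 4 passed (Ifit1, Rtp4, Irgm2 and Tap1). The pancreas markers summed to 0.332 to 1675 RPKM in the LF+CR libraries and to 0.300 to 2.41 in LF. Ex, averaged over both diets, gave no call among the members by limma and none at an unadjusted p under 0.05, against 0.599% of all genes higher and 6.44% lower.

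**Figure D2:**
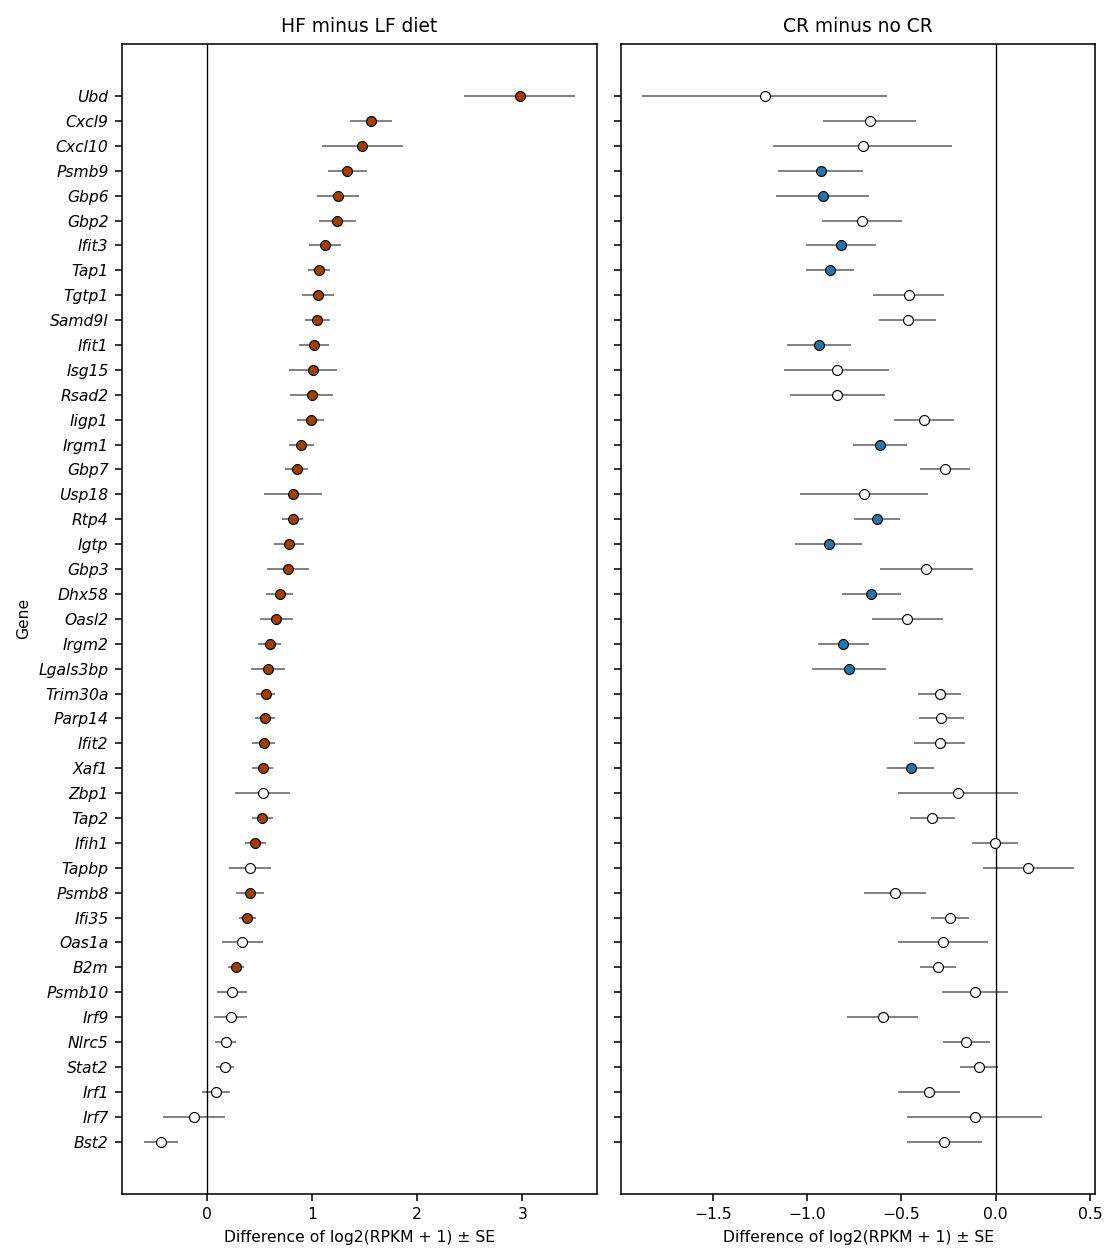
Difference in log2(RPKM + 1) for each gene, HF minus LF averaged over the 3 treatments (left) and CR minus no CR averaged over both diets (right), with the standard error as a bar. Filled points passed the limma test at adjusted p under 0.05; the 33 filled points on the left are all above 0 and the 12 on the right all below 0.

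Among the 4 transcription factors, Irf9, a DNA-binding part of the ISRE complex, was low in LF+CR. Its most abundant transcript stood at 4.87, 7.04 and 7.37 RPKM in LF, 1.32, 0.957 and 2.60 in LF+CR, 7.45, 5.78 and 3.97 in LF+Ex, 4.85, 2.99 and 5.86 in HF, 6.33, 4.28 and 7.25 in HF+CR, and 3.24, 4.80 and 4.91 in HF+Ex, in the order of replicates 1 to 3, as for every gene that follows. The 3 LF+CR libraries were the lowest of the 18, and the other 5 groups overlapped. LF+CR differed from LF by -1.53 ± 0.27 (limma adjusted p = 0.00441) and HF+CR from LF+CR by 1.43 ± 0.27 (limma adjusted p = 0.00416). The table holds 3 transcripts of Irf9. The second stood at 2.22, 4.85 and 1.28 RPKM in LF, 1.79, 2.37 and 1.42 in LF+CR, 1.97, 4.86 and 3.65 in LF+Ex, 3.56, 4.31 and 2.36 in HF, 3.54, 2.40 and 3.85 in HF+CR, and 3.91, 4.57 and 1.92 in HF+Ex, and the third at 4.49, 2.83 and 1.04 RPKM in LF, 2.67, 3.14 and 3.99 in LF+CR, 1.33, 0 and 4.40 in LF+Ex, 2.99, 6.73 and 4.98 in HF, 0.303, 4.49 and 0 in HF+CR, and 2.17, 4.43 and 4.31 in HF+Ex. In the third, LF+CR was not low, and single libraries of LF+Ex and HF+CR were listed at 0. With the 3 transcripts summed, LF+CR against LF was -0.74 (limma adjusted p = 0.0097).

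**Figure D3:**
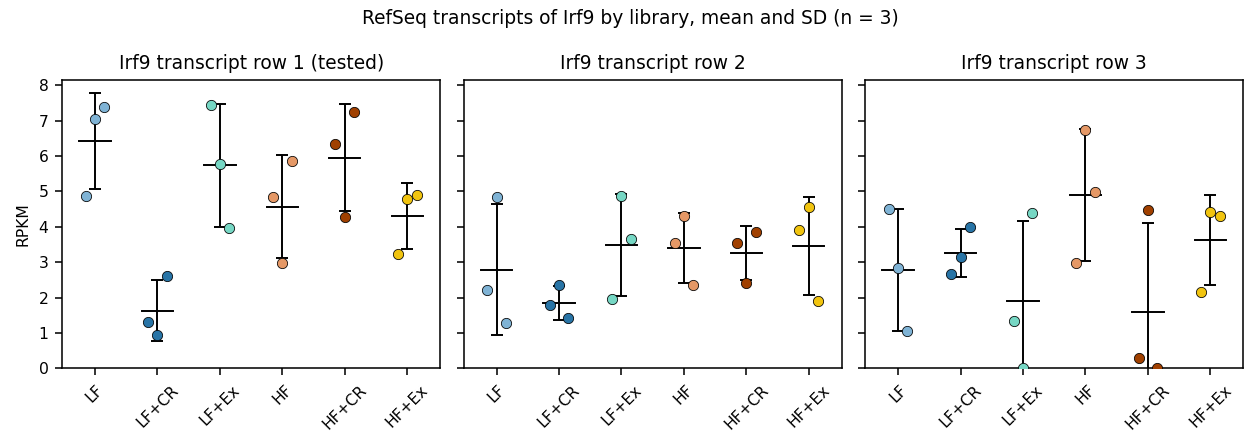
RPKM of the 3 RefSeq transcripts of Irf9 in each library (points), with group means and SD (bars, n = 3). In the first transcript, the one tested, LF+CR lies at 0.957 to 2.60 RPKM, below every other library; in the third transcript LF+CR lies at 2.67 to 3.99, within the range of LF.

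Irf7, the factor that amplifies type I interferon production, stood at 9.55, 10.9 and 5.08 RPKM in LF, 4.56, 8.78 and 23.5 in LF+CR, 5.64, 5.01 and 9.77 in LF+Ex, 10.3, 8.77 and 7.03 in HF, 2.98, 4.17 and 14.5 in HF+CR, and 6.58, 9.86 and 7.67 in HF+Ex. In this transcript, the most abundant, LF+CR 3 and HF+CR 3 were the highest of the 18 libraries, and every group overlapped every other. Its diet-averaged difference was -0.12 ± 0.29 (limma adjusted p = 0.795). In a second Irf7 transcript of similar mean, LF+CR 3 was again the highest, at 21.2 RPKM, but HF+CR 3 stood at 7.17, within the range of LF. Irf1, a factor induced by interferon gamma, ranged from 8.25 to 18.01 RPKM and Stat2, the partner of Irf9, from 8.55 to 14.8; their diet-averaged differences were 0.08 ± 0.13 (limma adjusted p = 0.689) and 0.17 ± 0.08 (limma adjusted p = 0.141).

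Of the 3 sensors of foreign nucleic acid, 2 rose on the HF diet in the transcript tested. Dhx58 (LGP2), which tunes signalling from viral RNA, stood at 3.86, 4.73 and 2.92 RPKM in LF, 1.02, 1.11 and 3.02 in LF+CR, 3.23, 3.07 and 4.32 in LF+Ex, 4.97, 7.004 and 5.02 in HF, 3.88, 3.99 and 3.87 in HF+CR, and 5.31, 6.76 and 6.63 in HF+Ex. LF+CR 1 and LF+CR 2 were the lowest of the 18 libraries, and HF lay above LF without overlap. It rose on the HF diet by 0.69 ± 0.13 (limma adjusted p = 0.00213) and fell with CR by 0.66 (SE 0.16, limma adjusted p = 0.0202). Ifih1 (MDA5), a sensor of long double-stranded RNA, stood at 4.86, 6.14 and 4.16 RPKM in LF, 3.35, 4.17 and 5.64 in LF+CR, 3.02, 3.99 and 4.66 in LF+Ex, 5.03, 7.06 and 5.54 in HF, 6.85, 5.74 and 7.51 in HF+CR, and 6.47, 6.74 and 6.86 in HF+Ex. The 3 HF+Ex libraries were above all 9 LF-diet libraries, and HF overlapped LF. Its diet-averaged difference was 0.46 ± 0.10 (limma adjusted p = 0.0048), and its CR-averaged difference -0.01 ± 0.12 (limma adjusted p = 0.984). Zbp1, a sensor of Z-form nucleic acid, ranged from 1.47 to 7.57 RPKM with HF+Ex above LF+Ex and the other diet pairs overlapping, and differed by 0.53 ± 0.26 (limma adjusted p = 0.15) between the diets. These values are of the more abundant of 2 Zbp1 transcripts. In the other, HF+Ex stood at 3.39, 3.41 and 3.86 RPKM, above every LF-diet library. There HF overlapped LF, and HF+CR overlapped LF+CR.

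Of the 14 antiviral effectors, 12 rose on the HF diet and 5 fell with CR. The Ifit proteins bind viral RNA and hinder its translation. Ifit1 stood at 2.85, 3.50 and 1.15 RPKM in LF, 0.340, 0.584 and 1.27 in LF+CR, 1.72, 1.21 and 2.17 in LF+Ex, 4.35, 6.42 and 4.58 in HF, 2.11, 2.21 and 2.46 in HF+CR, and 5.21, 5.42 and 5.41 in HF+Ex. The 6 HF and HF+Ex libraries were above all others, and HF+CR lay within the range of LF. Its diet-averaged difference was 1.02 ± 0.14 (limma adjusted p = 0.000431) and its CR-averaged difference -0.94 ± 0.17 (limma adjusted p = 0.00497), with differences of -0.98 on LF and -0.89 on HF. Ifit3 stood at 3.58, 4.79 and 1.98 RPKM in LF, 0.850, 1.54 and 2.95 in LF+CR, 2.74, 2.42 and 3.55 in LF+Ex, 7.83, 10.6 and 7.62 in HF, 3.45, 3.44 and 5.28 in HF+CR, and 8.53, 7.66 and 9.25 in HF+Ex. Here too the 6 HF and HF+Ex libraries were above the other 12. It differed between the diets by 1.12 ± 0.15 (limma adjusted p = 0.000386) and with CR by -0.82 ± 0.19 (limma adjusted p = 0.0158). Ifit2, lower in level, stood at 0.507, 1.34 and 0.416 RPKM in LF, 0.382, 0.457 and 0.587 in LF+CR, 0.392, 0.536 and 0.854 in LF+Ex, 1.31, 1.80 and 1.13 in HF, 0.650, 0.678 and 1.25 in HF+CR, and 1.97, 1.41 and 1.96 in HF+Ex. The HF+Ex libraries were above all LF-diet libraries, HF overlapped LF, and the diet-averaged difference was 0.54 ± 0.11 (limma adjusted p = 0.00393).

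Rtp4, a membrane-protein chaperone that restrains some viruses, stood at 6.03, 6.39 and 4.11 RPKM in LF, 1.88, 2.52 and 3.59 in LF+CR, 4.66, 5.12 and 5.02 in LF+Ex, 7.90, 11.2 and 7.65 in HF, 6.71, 6.41 and 5.85 in HF+CR, and 10.1, 9.88 and 8.42 in HF+Ex. The 3 LF+CR libraries were the lowest of the 18 and the 6 HF and HF+Ex libraries the highest. It differed by 0.82 ± 0.10 (limma adjusted p = 0.000234) between the diets and by -0.63 ± 0.12 (limma adjusted p = 0.00716) with CR. Rsad2 (viperin), which makes a chain-terminating nucleotide, stood at 2.13, 4.19 and 0.882 RPKM in LF, 0.302, 0.674 and 0.532 in LF+CR, 1.53, 0.923 and 2.56 in LF+Ex, 3.01, 5.76 and 4.42 in HF, 1.96, 1.48 and 4.56 in HF+CR, and 5.68, 3.26 and 4.15 in HF+Ex. LF+CR again held the 3 lowest libraries, but the CR-averaged difference, -0.84 ± 0.25 (limma adjusted p = 0.0567), did not pass the test. The diet-averaged difference was 0.99 ± 0.21 (limma adjusted p = 0.00393). Samd9l, a restriction factor that halts translation, stood at 1.99, 2.61 and 1.39 RPKM in LF, 1.03, 1.42 and 1.89 in LF+CR, 0.774, 0.955 and 1.73 in LF+Ex, 3.78, 6.59 and 5.17 in HF, 2.88, 2.37 and 3.47 in HF+CR, and 3.80, 5.48 and 4.95 in HF+Ex. The 6 HF and HF+Ex libraries were above the other 12. The diet-averaged difference was 1.05 ± 0.12 (limma adjusted p = 0.00016), and HF against LF was 1.04 ± 0.21 (limma adjusted p = 0.0484).

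Xaf1, a protein that promotes cell death, stood at 1.02, 1.86 and 0.828 RPKM in LF, 0.328, 0.366 and 0.762 in LF+CR, 0.647, 0.696 and 0.692 in LF+Ex, 1.45, 1.96 and 1.56 in HF, 0.902, 0.946 and 1.54 in HF+CR, and 1.67, 2.31 and 1.85 in HF+Ex. LF+CR 1 and LF+CR 2 were the lowest libraries, and HF overlapped LF through LF 2. Between the diets it differed by 0.53 ± 0.10 (limma adjusted p = 0.00225) and with CR by -0.45 ± 0.12 (limma adjusted p = 0.0371). Lgals3bp, a secreted glycoprotein, stood at 61.7, 70.4 and 33.3 RPKM in LF, 22.8, 21.7 and 33.0 in LF+CR, 35.2, 32.4 and 53.0 in LF+Ex, 55.5, 74.1 and 55.6 in HF, 35.4, 34.9 and 59.3 in HF+CR, and 63.9, 85.0 and 65.9 in HF+Ex. LF+CR lay below LF without overlap, and HF overlapped LF. It differed by 0.58 ± 0.16 (limma adjusted p = 0.0177) between the diets and by -0.78 ± 0.20 (limma adjusted p = 0.0271) with CR. Oasl2, of the oligoadenylate synthetase-like family, stood at 1.37, 2.47 and 0.865 RPKM in LF, 0.444, 0.618 and 1.47 in LF+CR, 1.06, 0.837 and 1.27 in LF+Ex, 2.43, 3.64 and 1.86 in HF, 1.45, 0.914 and 2.67 in HF+CR, and 2.99, 2.98 and 2.78 in HF+Ex. HF+Ex was above every LF-diet library, and the diet-averaged difference was 0.66 ± 0.15 (limma adjusted p = 0.00742).

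Trim30a, a ubiquitin-ligase family protein, stood at 1.31, 1.73 and 0.957 RPKM in LF, 0.821, 0.752 and 1.11 in LF+CR, 0.809, 0.786 and 1.31 in LF+Ex, 1.94, 2.47 and 2.05 in HF, 1.44, 1.43 and 1.80 in HF+CR, and 1.78, 3.11 and 2.41 in HF+Ex. HF lay above LF, and HF+Ex above LF+Ex, without overlap. Parp14, an ADP-ribosyltransferase, stood at 3.80, 6.10 and 3.66 RPKM in LF, 2.39, 2.97 and 3.61 in LF+CR, 3.86, 4.06 and 4.93 in LF+Ex, 5.36, 7.87 and 5.75 in HF, 5.40, 5.47 and 6.12 in HF+CR, and 6.88, 6.13 and 6.21 in HF+Ex. LF 2 lay within the range of HF, and HF+CR was above LF+CR without overlap. Ifi35 stood at 12.5, 15.2 and 12.4 RPKM in LF, 10.8, 9.28 and 12.4 in LF+CR, 13.4, 12.7 and 9.69 in LF+Ex, 17.9, 17.7 and 15.2 in HF, 13.5, 16.4 and 14.2 in HF+CR, and 15.6, 18.7 and 14.2 in HF+Ex. HF was above LF, with the lowest HF library just above LF 2. The diet-averaged differences of these 3 were 0.56 ± 0.09 (limma adjusted p = 0.00134), 0.55 ± 0.10 (limma adjusted p = 0.00152) and 0.38 ± 0.08 (limma adjusted p = 0.00452). Oas1a, a synthetase that activates RNase L, ranged from 0.369 to 2.70 RPKM and its difference was 0.34 ± 0.20 (limma adjusted p = 0.226).

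Bst2 (tetherin), which holds budding virus on the cell surface, had the opposite sign. It stood at 340.5, 424 and 237 RPKM in LF, 185, 212 and 312 in LF+CR, 232, 251 and 246 in LF+Ex, 210.5, 221 and 138 in HF, 124, 164 and 284 in HF+CR, and 227, 233 and 193 in HF+Ex. All 3 HF libraries were below all 3 LF libraries, while HF+CR overlapped LF+CR and HF+Ex overlapped LF+Ex. HF against LF was -0.80 ± 0.28 (limma adjusted p = 0.178) and the diet-averaged difference -0.44 ± 0.16 (limma adjusted p = 0.0616), neither of which passed the test. Its promoter window, shown above, holds the same motifs as those of Irgm2, Igtp and Tgtp1.

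**Figure D4:**
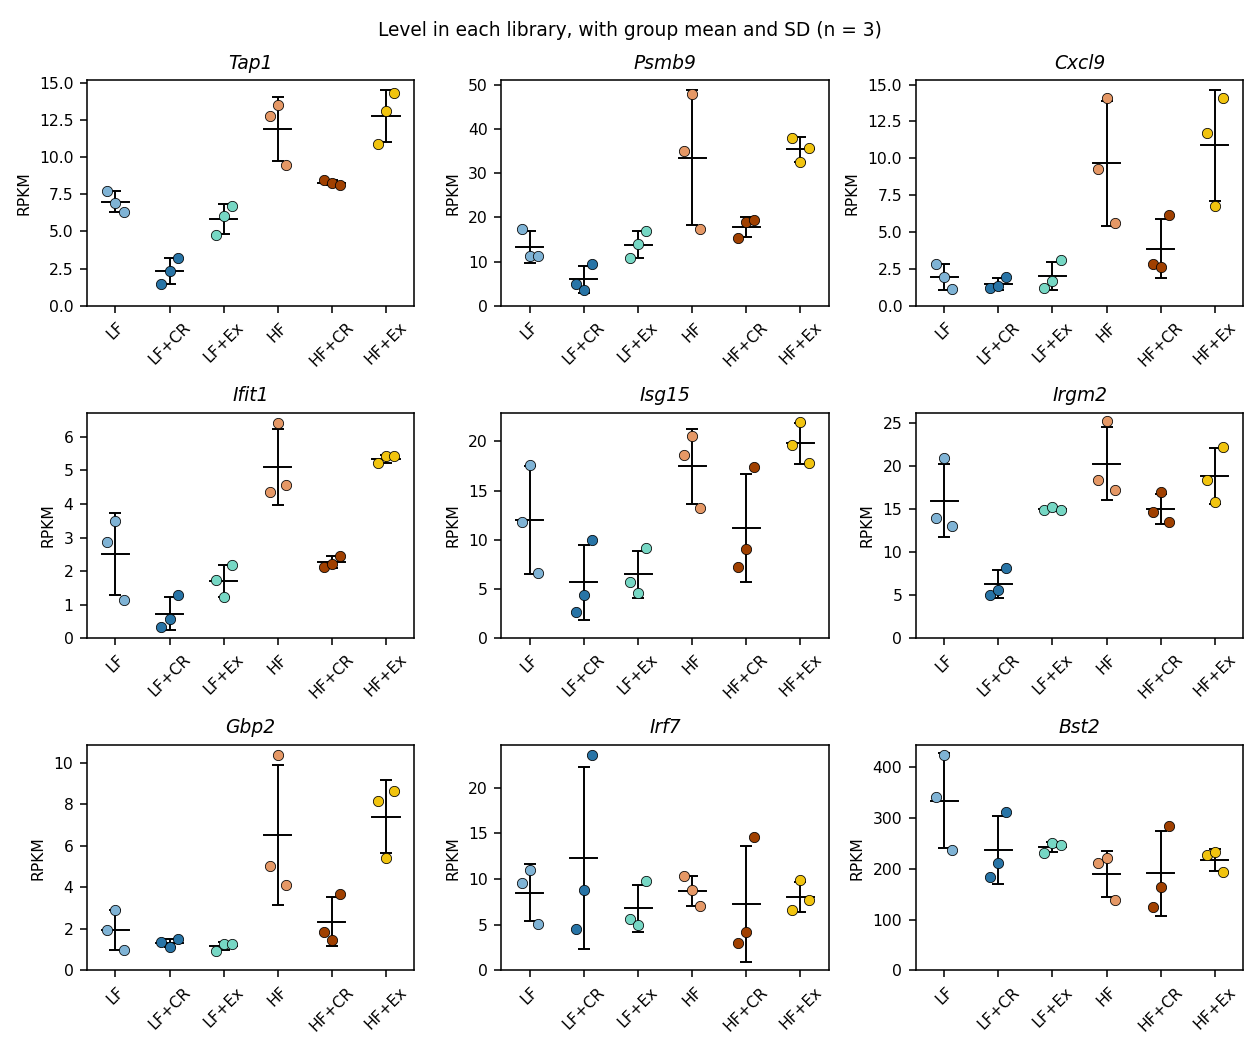
RPKM of 9 genes in each library (points, replicates 1 to 3 from left to right), with the group mean and SD (n = 3); each panel has its own scale from 0. Tap1 is above 8 RPKM in all 9 HF-diet libraries and below 8 in all 9 LF-diet libraries, Irgm2 is lowest in LF+CR, and Bst2 is highest in LF 2.

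The ubiquitin-like modifiers Ubd and Isg15 and the protease Usp18 all rose on the HF diet, and none passed the test for CR. Ubd (FAT10), a modifier that marks proteins for the proteasome, had the largest diet-averaged difference of the members and stood at 1.04, 1.51 and 1.52e-18 RPKM in LF, 0.0381, 0.339 and 0.739 in LF+CR, 0.0338, 0.135 and 1.83 in LF+Ex, 11.7, 42.6 and 7.94 in HF, 0.582, 0.319 and 29.6 in HF+CR, and 40.1, 17.9 and 18.2 in HF+Ex. The value of LF 3 is in effect 0. The 3 HF and 3 HF+Ex libraries and HF+CR 3 lay at 7.94 RPKM or more, and the other 11 libraries at 1.83 or less. Averaged over treatments, HF exceeded LF by 2.97 ± 0.53 (limma adjusted p = 0.00172). Isg15, a modifier conjugated to viral and host proteins, stood at 11.8, 17.6 and 6.63 RPKM in LF, 2.63, 4.44 and 9.97 in LF+CR, 5.69, 4.60 and 9.15 in LF+Ex, 18.6, 20.5 and 13.2 in HF, 7.19, 9.02 and 17.4 in HF+CR, and 19.6, 21.9 and 17.8 in HF+Ex. HF+Ex was above every LF-diet library, and HF overlapped LF. It differed by 1.01 ± 0.23 (limma adjusted p = 0.00643) between the diets and by -0.84 ± 0.28 (limma adjusted p = 0.0787) with CR. Usp18, the protease that removes Isg15 and damps interferon signalling, stood at 6.16, 11.1 and 1.74 RPKM in LF, 1.93, 2.97 and 4.41 in LF+CR, 3.98, 2.90 and 5.08 in LF+Ex, 7.40, 12.1 and 10.4 in HF, 3.36, 3.45 and 12.4 in HF+CR, and 6.18, 10.8 and 9.59 in HF+Ex. LF 2 lay within the range of HF. Its diet-averaged difference, 0.82 ± 0.28 (limma adjusted p = 0.0443), no longer passed without any 1 of LF 1, LF 3, LF+CR 1, LF+CR 2, LF+Ex 1, LF+Ex 2, HF 2, HF 3, HF+CR 3, HF+Ex 2 or HF+Ex 3, and its adjusted p reached 0.123 over all alternatives.

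All 9 interferon-induced GTPases rose on the HF diet, by 0.60 to 1.24, and 4 fell with CR. The guanylate-binding proteins assemble on pathogen vacuoles and membranes. Gbp2 stood at 1.93, 2.91 and 0.990 RPKM in LF, 1.36, 1.12 and 1.51 in LF+CR, 0.938, 1.29 and 1.29 in LF+Ex, 5.05, 10.4 and 4.13 in HF, 1.87, 1.48 and 3.69 in HF+CR, and 8.18, 5.41 and 8.64 in HF+Ex. The 6 HF and HF+Ex libraries were above the other 12. It differed between the diets by 1.24 ± 0.17 (limma adjusted p = 0.000464). Gbp7 stood at 2.10, 1.61 and 1.48 RPKM in LF, 0.907, 1.17 and 2.29 in LF+CR, 1.45, 2.08 and 1.75 in LF+Ex, 3.57, 4.80 and 3.06 in HF, 2.76, 3.004 and 2.46 in HF+CR, and 4.52, 4.33 and 5.95 in HF+Ex. All 9 HF-diet libraries were above all 9 LF-diet libraries, which was so for the tested transcript of 3 members (Gbp7, Iigp1 and Tap1) and of 0.560% of all genes. Its difference was 0.85 ± 0.11 (limma adjusted p = 0.000281). Gbp6 stood at 1.54, 3.82 and 0.907 RPKM in LF, 0.121, 0.586 and 0.900 in LF+CR, 0.702, 0.645 and 2.18 in LF+Ex, 4.07, 8.61 and 3.36 in HF, 1.82, 2.23 and 2.54 in HF+CR, and 4.79, 5.02 and 5.96 in HF+Ex. HF+Ex was above every LF-diet library and LF+CR 1 was the lowest. It differed by 1.24 ± 0.20 (limma adjusted p = 0.00109) between the diets and by -0.92 ± 0.25 (limma adjusted p = 0.0348) with CR. Gbp3 stood at 2.07, 2.42 and 1.46 RPKM in LF, 0.735, 1.57 and 4.80 in LF+CR, 0.984, 1.36 and 1.92 in LF+Ex, 3.97, 6.35 and 3.06 in HF, 1.33, 2.25 and 3.21 in HF+CR, and 4.44, 5.02 and 6.08 in HF+Ex. LF+CR 3 lay within the range of HF. The diet-averaged difference was 0.77 ± 0.20 (limma adjusted p = 0.0139).

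The immunity-related GTPases Igtp, Irgm1, Irgm2, Iigp1 and Tgtp1 act together on vacuoles, with Irgm1, Irgm2 and Igtp as regulators of the others. Irgm2 stood at 13.95, 20.9 and 13.04 RPKM in LF, 5.05, 5.58 and 8.09 in LF+CR, 14.9, 15.3 and 14.9 in LF+Ex, 18.4, 25.1 and 17.2 in HF, 14.6, 16.9 and 13.5 in HF+CR, and 18.3, 15.8 and 22.2 in HF+Ex. The 3 LF+CR libraries were the lowest of the 18, and HF overlapped LF. LF+CR against LF was -1.22 ± 0.19 (limma adjusted p = 0.00221), the CR-averaged difference -0.81 ± 0.14 (limma adjusted p = 0.00319), and the diet-averaged difference 0.60 ± 0.11 (limma adjusted p = 0.00209). Irgm1 stood at 13.8, 17.02 and 11.5 RPKM in LF, 6.03, 7.68 and 9.83 in LF+CR, 10.9, 10.6 and 17.7 in LF+Ex, 19.9, 31.0 and 23.4 in HF, 18.8, 17.9 and 16.1 in HF+CR, and 22.1, 22.5 and 25.8 in HF+Ex. Again LF+CR held the 3 lowest libraries, and HF was above LF without overlap. It differed by 0.90 ± 0.12 (limma adjusted p = 0.000345) between the diets and by -0.61 ± 0.15 (limma adjusted p = 0.0199) with CR. Igtp stood at 10.4, 16.3 and 9.503 RPKM in LF, 4.96, 5.94 and 8.33 in LF+CR, 10.7, 9.73 and 10.3 in LF+Ex, 17.5, 31.9 and 15.7 in HF, 8.84, 12.02 and 9.62 in HF+CR, and 21.0, 16.8 and 26.1 in HF+Ex. LF+CR was lowest here too, and HF+CR lay below HF without overlap. It differed by 0.78 ± 0.15 (limma adjusted p = 0.00213) between the diets and by -0.89 ± 0.18 (limma adjusted p = 0.00798) with CR.

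Iigp1, the most abundant of the 9, stood at 18.6, 37.5 and 34.8 RPKM in LF, 14.8, 18.7 and 20.3 in LF+CR, 23.8, 27.5 and 31.5 in LF+Ex, 41.1, 56.9 and 51.1 in HF, 40.2, 58.0 and 42.8 in HF+CR, and 45.9, 49.7 and 58.9 in HF+Ex. In this transcript, the more abundant of 2, all 9 HF-diet libraries were above all 9 LF-diet libraries. Between the diets it differed by 0.98 ± 0.13 (limma adjusted p = 0.000343), and with CR by -0.38 ± 0.16 (limma adjusted p = 0.158). In the other transcript HF lay at 24.86 to 31.17 RPKM, within the 17.98 to 31.24 of LF. There HF+Ex also overlapped LF+Ex, and HF+CR was above LF+CR without overlap. With the transcripts of Iigp1 summed, the diet-averaged call held and the call in HF+Ex against LF+Ex was lost. Tgtp1, the lowest in level, stood at 0.0733, 0.310 and 0 RPKM in LF, 0.131, 0.138 and 0.149 in LF+CR, 0.0536, 0.0116 and 0.130 in LF+Ex, 1.504, 3.42 and 1.34 in HF, 0.413, 0.305 and 0.953 in HF+CR, and 1.96, 0.754 and 2.76 in HF+Ex. All LF-diet libraries were at 0.310 RPKM or less, and LF 3 was listed at 0. HF against LF was 1.401 ± 0.27 (limma adjusted p = 0.0382) and the diet-averaged difference 1.06 ± 0.15 (limma adjusted p = 0.00058). Tgtp1 reached 1 RPKM only in HF and HF+Ex libraries, so it entered the test only through groups where it is high. Without the filter the call in HF against LF was lost and the diet-averaged call held.

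Cxcl9 and Cxcl10, both ligands of Cxcr3 on T cells, rose on the HF diet. Cxcl9 stood at 2.83, 1.94 and 1.12 RPKM in LF, 1.21, 1.36 and 1.96 in LF+CR, 1.24, 1.72 and 3.10 in LF+Ex, 9.26, 14.1 and 5.62 in HF, 2.84, 2.60 and 6.17 in HF+CR, and 11.7, 6.77 and 14.1 in HF+Ex. The HF and HF+Ex libraries and HF+CR 3 were above every LF-diet library, and HF+CR 1 and HF+CR 2 lay among them. Averaged over treatments, the diets differed by 1.56 ± 0.20 (limma adjusted p = 0.000282), and HF against LF was 1.81 ± 0.35 (limma adjusted p = 0.0405). Cxcl10 stood at 3.69, 6.83 and 0.901 RPKM in LF, 6.21, 0.949 and 0.950 in LF+CR, 1.13, 1.12 and 3.73 in LF+Ex, 8.51, 13.9 and 6.76 in HF, 2.24, 1.88 and 14.9 in HF+CR, and 18.2, 8.36 and 13.1 in HF+Ex. LF 2 and LF+CR 1 lay near the lowest HF library, and HF+CR 3 was above every HF library. It differed between the diets by 1.48 ± 0.39 (limma adjusted p = 0.0138). With CR neither passed, at -0.67 ± 0.25 (limma adjusted p = 0.11) and -0.71 ± 0.47 (limma adjusted p = 0.389).

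The 3 immunoproteasome subunits Psmb8, Psmb9 and Psmb10 take the places of Psmb5, Psmb6 and Psmb7. Psmb9 stood at 17.4, 11.3 and 11.2 RPKM in LF, 4.93, 3.61 and 9.43 in LF+CR, 10.8, 13.9 and 16.9 in LF+Ex, 35.1, 47.9 and 17.5 in HF, 15.3, 19.0 and 19.4 in HF+CR, and 38.0, 32.5 and 35.7 in HF+Ex. LF+CR held the 3 lowest libraries, and HF 3 was only just above LF 1. It differed by 1.34 ± 0.18 (limma adjusted p = 0.000437) between the diets and by -0.93 ± 0.23 (limma adjusted p = 0.0225) with CR. Psmb8 stood at 24.7, 23.6 and 22.4 RPKM in LF, 13.2, 13.01 and 26.03 in LF+CR, 28.3, 30.0 and 24.3 in LF+Ex, 36.0, 41.7 and 23.6 in HF, 19.1, 20.8 and 25.4 in HF+CR, and 43.3, 32.7 and 34.2 in HF+Ex. LF+CR 1 and LF+CR 2 were lowest, and HF overlapped LF. Its diet-averaged difference, 0.41 ± 0.13 (limma adjusted p = 0.0393), failed without any 1 of LF 1, LF 2, LF 3, LF+CR 1, LF+CR 2, LF+Ex 1, LF+Ex 2, LF+Ex 3, HF 1, HF 2, HF+CR 2, HF+CR 3, HF+Ex 1 or HF+Ex 3, and its adjusted p reached 0.119 over all alternatives. Psmb10 stood at 20.9, 19.3 and 20.4 RPKM in LF, 18.9, 18.9 and 29.7 in LF+CR, 18.5, 23.4 and 16.6 in LF+Ex, 32.5, 29.6 and 17.4 in HF, 13.7, 21.5 and 27.6 in HF+CR, and 30.5, 26.7 and 26.1 in HF+Ex. HF+Ex was above LF+Ex and the other diet pairs overlapped, and its difference was 0.24 ± 0.14 (limma adjusted p = 0.248).

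The constitutive partners did not pass the test between the diets: Psmb5 differed by 0.01 ± 0.09 (limma adjusted p = 0.948), Psmb6 by -0.15 ± 0.07 (limma adjusted p = 0.128) and Psmb7 by 0.03 ± 0.06 (limma adjusted p = 0.79), and none of the 7 constitutive beta subunits was called. As RPKM of Psmb9 per 100 of Psmb6, the libraries stood at 15.1, 8.93 and 10.1 in LF, 3.79, 3.05 and 8.33 in LF+CR, 10.7, 11.9 and 18.5 in LF+Ex, 30.7, 46.2 and 19.1 in HF, 16.4, 16.01 and 18.1 in HF+CR, and 36.7, 32.9 and 39.4 in HF+Ex. Psmb9 was thus the smaller partner everywhere, with the lowest ratio in LF+CR 2 and the highest in HF 2. Psmb8 per 100 of Psmb5 averaged 26.3 ± 3.90 in LF, 21.0 ± 10.3 in LF+CR, 37.0 ± 2.06 in LF+Ex, 39.3 ± 6.29 in HF, 27.2 ± 3.65 in HF+CR and 43.01 ± 6.60 in HF+Ex (SD, n = 3). Psmb10 per 100 of Psmb7 averaged between 16.8 ± 5.72 in HF+CR and 25.96 ± 2.21 in HF+Ex. The regulator subunits Psme1 and Psme2 differed by -0.01 ± 0.06 (limma adjusted p = 0.925) and 0.26 ± 0.12 (limma adjusted p = 0.121).

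**Figure D5:**
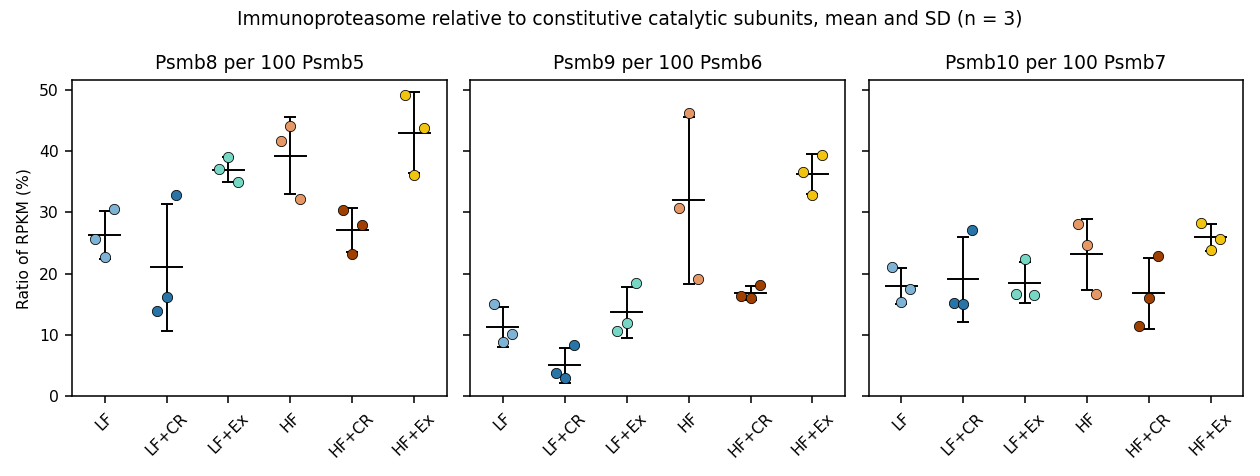
RPKM of each immunoproteasome subunit per 100 RPKM of the constitutive subunit it replaces, in each library (points), with group means and SD (n = 3). Psmb9 per 100 Psmb6 runs from 3.05 in LF+CR to 46.2 in HF, a wider range than the other pairs.

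In class I loading, Tap1 and Tap2 form the pump that carries peptides into the endoplasmic reticulum. Tap1, at chr17:34187556-34197225 and beside Psmb9 at chr17:34182030-34187330, stood at 7.74, 6.90 and 6.33 RPKM in LF, 1.45, 2.34 and 3.23 in LF+CR, 4.77, 6.05 and 6.74 in LF+Ex, 12.7, 13.5 and 9.48 in HF, 8.43, 8.26 and 8.12 in HF+CR, and 10.9, 13.1 and 14.3 in HF+Ex. All 9 HF-diet libraries were above all 9 LF-diet libraries, and LF+CR held the 3 lowest. Of the members it had the smallest p for the diet average. The diet-averaged difference was 1.07 ± 0.10 (limma adjusted p = 7.59e-05), the CR-averaged difference -0.88 ± 0.13 (limma adjusted p = 0.00118) and LF+CR against LF -1.29 ± 0.18 (limma adjusted p = 0.00112). Tap2 stood at 11.5, 9.70 and 8.81 RPKM in LF, 6.15, 5.86 and 9.02 in LF+CR, 9.64, 10.4 and 8.57 in LF+Ex, 13.1, 15.9 and 10.0 in HF, 9.76, 10.8 and 12.6 in HF+CR, and 16.4, 15.9 and 14.01 in HF+Ex. HF+Ex was above every LF-diet library and LF+CR 3 within the range of LF. It differed by 0.53 ± 0.10 (limma adjusted p = 0.00195) between the diets and by -0.34 ± 0.12 (limma adjusted p = 0.0935) with CR. B2m, the light chain of every class I molecule, stood at 1579.7, 2136 and 1698 RPKM in LF, 1469.6, 1794 and 1670.1 in LF+CR, 1517, 1618 and 1999.8 in LF+Ex, 2229.6, 2675 and 2178 in HF, 1573, 1706 and 1763 in HF+CR, and 2244, 2309 and 2155 in HF+Ex. The HF libraries were above LF, and HF+CR overlapped LF. It differed by 0.27 ± 0.08 (limma adjusted p = 0.0212) between the diets; the call was lost without the filter and without the pancreas libraries, with a limma adjusted p of up to 0.1, as it was for Lgals3bp, with up to 0.0732. Tapbp, which holds Tap and class I together, and Nlrc5, the transactivator of class I genes, differed by 0.41 ± 0.20 (limma adjusted p = 0.143) and 0.18 ± 0.10 (limma adjusted p = 0.214). Of the heavy chains, H2-K1 stood at 829 ± 167 RPKM in LF and 886 ± 109 in HF, and differed by 0.04 ± 0.08 (limma adjusted p = 0.788) between the diets; H2-D1 differed by 0.13 ± 0.12 (limma adjusted p = 0.465).

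The diet comparison within each treatment gave fewer calls, all higher on HF. HF against LF called 3 members (Samd9l, Tgtp1 and Cxcl9), against 0.261% of all genes called higher and 0.145% lower. Tgtp1 had passed the filter on low values only through HF-diet libraries. The median of the members was 0.52, and 18 members lay above LF without overlap, against 7.97% of all genes, while Bst2 lay below, against 10.9%. Which members passed moved with single libraries: 0 passed without LF 1, LF 3, LF+CR 1, LF+CR 2, LF+Ex 2, HF 1, HF 2, HF+CR 1 or HF+CR 2. A single member passed without LF 2 (Samd9l), LF+CR 3 (Gbp7), HF 3 (Cxcl9) or HF+Ex 3 (Tgtp1), and 5 without HF+CR 3 (the 3 with Ubd and Gbp2). Without the bile duct libraries 7 passed, without the pancreas libraries 0, and with median-of-ratios scaling 6. That scaling also moved the calls over all genes from 27 higher and 15 lower to 107 and 107.

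With CR on both sides, HF+CR against LF+CR, 14 members were higher, against 4.7% of all genes called higher and 5.08% lower. They were Irf9, Dhx58, Ifit1, Ifit3, Rsad2, Rtp4, Parp14, Gbp7, Irgm1, Irgm2, Iigp1, Psmb9, Tap1 and Tap2. Their differences ran from 0.60 for Tap2 to 1.51 ± 0.32 for Psmb9, and 26 members did not overlap, against 15.6% of all genes, and none lay below, against 15.7%. Irf9, Rtp4, Irgm1, Irgm2, Iigp1, Psmb9 and Tap1 made up the 7 that passed without LF+CR 1, and Parp14 joined them in the 8 without LF+CR 2 and the 8 without HF+CR 1. Without the pancreas libraries, 2 of which are in this comparison, Iigp1 and Tap1 passed.

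With Ex on both sides, HF+Ex against LF+Ex, 22 members were higher, against 4.13% of all genes called higher and 1.01% lower. They were Ifih1, Ifit1, Ifit2, Ifit3, Rtp4, Samd9l, Xaf1, Trim30a, Isg15, Ubd, Gbp2, Gbp3, Gbp6, Gbp7, Igtp, Irgm1, Iigp1, Tgtp1, Cxcl9, Psmb9, Tap1 and Tap2, and 37 members did not overlap, against 24.2% of all genes, and none lay below, against 6.67%. Ubd had the largest difference, 4.05 ± 0.92 (limma adjusted p = 0.0257), and Cxcl9 and Gbp2 followed among those called, with 1.97 ± 0.35 and 1.93 ± 0.30. Without LF+Ex 1, 3 passed (Samd9l, Gbp2 and Gbp7); there were 5 without LF+Ex 2 (those with Cxcl9 and Tap1), 7 without HF+Ex 1, 6 without HF+Ex 2 and 2 without HF+Ex 3 (Samd9l and Gbp2). Without the pancreas libraries 2 passed (Samd9l and Tap1). Median-of-ratios scaling kept 20 of the 22 and moved the calls over all genes from 428 higher and 105 lower to 421 and 350.

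On the LF diet 8 members fell with CR. They were Irf9, Dhx58, Ifit1, Rtp4, Lgals3bp, Irgm1, Irgm2 and Tap1, with differences from -0.78 ± 0.21 for Irgm1 to -1.53 ± 0.27 for Irf9, against 3.01% of all genes called higher and 3.49% lower. The median of the 43 was -0.45, or -0.23 without LF 2, and 13 members lay below LF without overlap, against 11.7% of all genes, and none above, against 11.6%. Irf9, Irgm2 and Tap1 passed whichever library was left out. There were 4 without LF 1, LF 2 or LF+CR 2, 3 without LF+CR 1, and 14 without LF+CR 3, the library in which 37 members were the highest of its group. Without the pancreas libraries 3 passed and without the bile duct libraries 4.

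On the HF diet, HF+CR against HF, no member was called by limma; 0.628% of all genes were called higher and 0.772% lower. At an unadjusted p under 0.05, 15 members were lower, against 6.94% of all genes, and 15 lay below HF without overlap, against 8.29%. No member was higher by either measure, against 7.03% and 10.7% of all genes. The median of the 43 was -0.46, or -0.29 without HF 2. The smallest adjusted p values were those of Igtp, -0.97 ± 0.25 (limma adjusted p = 0.0839), Gbp2, -1.14 ± 0.30 (limma adjusted p = 0.091), and Ifit1, -0.89 ± 0.24 (limma adjusted p = 0.0961). Without HF+CR 3, which was the highest of its group for 33 members, 3 passed (Ubd, Gbp2 and Cxcl9), and without LF 3, 1 (Ifit1). Without the bile duct libraries 5 passed, all lower (Ifit3, Ubd, Gbp2, Tgtp1 and Cxcl9). The HF group also enters HF against LF and the LF group LF+CR against LF, so these comparisons share samples.

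The CR difference itself differed between the diets for 1 member. The interaction, HF+CR minus HF less LF+CR minus LF, was 1.86 ± 0.38 (limma adjusted p = 0.0286) for Irf9, against 0.579% of all genes called with a positive interaction and 0.444% with a negative one. The call was lost without LF 2, LF 3, LF+CR 1, LF+CR 2, HF 2 or HF+CR 1, where its adjusted p was 0.061 to 0.0875, and with the 3 transcripts summed, where the interaction was 0.51 (limma adjusted p = 0.35). Without the bile duct libraries Irf9 missed the threshold (limma adjusted p = 0.0603) and Ubd passed instead. A missed threshold does not show that CR acted alike on both diets.

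Ex called none of the 43 members on either diet, and no gene of the 10356 passed either test. At an unadjusted p under 0.05, 2 members were lower and 0 higher in LF+Ex than in LF, against 8.16% and 0.956% of all genes, and 0 members differed between HF+Ex and HF, where 0.946% of all genes were higher and 2.69% lower. By sign alone 38 of the 43 were lower in LF+Ex, with a median of -0.16; the median of all genes was -0.13, and with median-of-ratios scaling 26 were lower and the median was -0.03. Without LF 2 the median was -0.03 and without LF 3 -0.32. Over all genes 20.9% were higher in LF+Ex by sign. Xaf1 alone lay below LF without overlap, against 11.4% of all genes, and none lay above, against 0.83%. In HF+Ex against HF the median was 0.10, and it was 0.06 without HF 1 or HF+Ex 3, 0.22 without HF 2 and -0.03 without HF 3, so its sign rested on single libraries. All members overlapped in that comparison, against 2.96% of all genes above HF and 8.06% below. On the log2(RPKM + 1) scale, every Ex library lay below the LF mean on LF and above the HF mean on HF for 8 members, and for 7.96% of all genes. Isg15 is one: its values were 5.69, 4.60 and 9.15 RPKM in LF+Ex against 11.8, 17.6 and 6.63 in LF, and 19.6, 21.9 and 17.8 in HF+Ex against 18.6, 20.5 and 13.2 in HF. Its interaction was 0.94 ± 0.56 (limma adjusted p = 0.818). None of the 8 (Irf1, Ifih1, Ifit1, Oasl2, Xaf1, Bst2, Isg15 and Gbp3) passed the interaction test, with adjusted p from 0.818 to 0.837.

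Over the 6 groups, HF+Ex had the highest mean for 28 members and HF for 11, against 13.7% and 14.7% of all genes. LF+CR had the lowest mean for 31 and LF+Ex for 9, against 19.7% and 32.5% of all genes. Each of the 3 HF-diet means was above each of the 3 LF-diet means for 28 members, against 14.7% of all genes, and HF+CR lay between LF and HF for 27, against 34.5%. Members moved together within a group: HF 2 was the highest of its 3 replicates for 39 members, LF 2 for 34 and LF 3 the lowest for 39, so members are not independent of each other.

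Members with and without the ISRE letters were both raised. Of the 18 with an ISRE core match, 15 were called higher on the HF diet, with a median difference of 0.82; of the 16 without one in the window, 11 were called, with a median of 0.53; of the 9 with no window, 7. Bst2, the member with a match whose difference was below 0, was not called. With CR, 5 of the 18, 4 of the 16 and 3 of the 9 were called lower. The groups were not compared by a test.

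Other genes of the pathway were taken from lists set out for this description. Over all genes tested, 14% were called higher and 9.69% lower on the HF diet, and 3.15% higher and 4.04% lower with CR. All 9 interferon ligands listed, Ifng among them, were at 0 in all 18 libraries. A listed 0 does not show absence, since Alb, a hepatocyte product, was also listed at 0 in most libraries. Among receptor and signalling genes, the gamma receptor chain Ifngr2 (0.50 ± 0.14) and the kinase Tyk2 (0.31 ± 0.10) rose on the HF diet. Of 10 sensors and adaptors, Irf5, Ddx58, Tlr3 and Sting1 rose, and Mavs, the mitochondrial adaptor of Ifih1 and Ddx58, fell (-0.66 ± 0.12). Of 33 other interferon-induced genes tested, 20 rose and 0 fell, with a median of 0.44. Ifi47, a further GTPase, stood at 3.75 ± 2.81 RPKM in LF and 10.9 ± 2.82 in HF (SD, n = 3) and differed by 1.65 ± 0.19 (limma adjusted p = 0.000143). Gbp10 differed by 1.398 ± 0.18 (limma adjusted p = 0.000281) and fell with CR by 0.97 (SE 0.22, limma adjusted p = 0.0157). With CR averaged over both diets, 5 of the 33 fell and none rose: Dtx3l (-0.51 ± 0.09), Gbp10, Parp9 (-0.42 ± 0.10), Oasl1 (-0.83 ± 0.22) and Tor3a (-0.71 ± 0.20). Among receptors the type I chain Ifnar2 fell with CR, by 0.33 (SE 0.08, limma adjusted p = 0.0161). Of 14 other class I genes, H2-Q4 and H2-M3 rose on the HF diet, a share near that of all genes. Where 5 genes of a list were called, the one with the largest p was named after its values were seen.

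Some markers of other cells moved with the diet, where 14% of all genes were called higher and 9.69% lower. Of 10 macrophage markers tested, Mpeg1 (1.04 ± 0.22), Cd5l (0.92 ± 0.18), Adgre1 (0.77 ± 0.15) and Csf1r (0.59 ± 0.16) rose on the HF diet and Cd163 (-0.99 ± 0.21) fell. The 12 macrophage markers in the table summed to 135 to 332 RPKM in LF, 102 to 153 in LF+CR, 143 to 203 in LF+Ex, 203 to 433 in HF, 167 to 315 in HF+CR and 274 to 333 in HF+Ex. Of 16 T and NK cell markers, 13 stayed under 1 RPKM in all 18 libraries; both that were tested, Ccl5 (1.56 ± 0.44) and Nkg7 (0.62 ± 0.17), rose. The 16 summed to 0.661 to 12.8 RPKM in LF, 3.75 to 4.12 in LF+CR, 2.40 to 3.91 in LF+Ex, 11.1 to 23.2 in HF, 3.01 to 26.9 in HF+CR and 8.83 to 24.6 in HF+Ex. Both B cell markers tested, Cd79a and Cd79b, rose, and the 5 B cell markers summed to 5.39 RPKM at most. Of 7 stellate cell markers Lrat, Col1a1 and Col3a1 rose, and of 6 endothelial markers Lyve1 rose and Clec4g fell. Of 10 hepatocyte markers Tat, Cps1 and Hnf4a fell and Alb, with its zeros, rose. None of the tested macrophage, T and NK, or B cell markers passed with CR averaged over both diets, where the macrophage markers had a median of -0.37. Hepatocyte markers did move with CR: Tat (1.48 ± 0.16), Cps1 (1.004 ± 0.13) and Ttr (0.37 ± 0.09) rose in the average over both diets, the same 3 rose in LF+CR against LF, and Tat and Cps1 rose in HF+CR against HF. Of 4 plasmacytoid dendritic cell markers, Siglech and Ccr9 were below 1 RPKM in all 18 libraries, and Tcf4, the only one tested, rose on the HF diet (0.25 ± 0.08). The part of these cells in the differences of the 43 members was not tested.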

How the data were processed

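PolyA RNA of 18 mouse liver libraries was sequenced. The deposited RPKM values, 1 per RefSeq transcript and library, were made by the authors; TopHat 1.4.1, Cufflinks 1.3.0 and mm10 are named in the submitters' processing notes. RPKM carries no read counts, so depth was estimated from the steps between low values and sets a precision that is not known exactly. Of 30582 transcripts, 30003 were named through RefSeq and 180 through GENCODE. The transcript with the highest mean stood for its gene. Genes with at least 1 RPKM in 3 libraries (10356) were tested on log2(RPKM + 1) with limma 3.58.1 in R 4.3.3 (1 mean per group, 18 libraries, 12 residual degrees of freedom, trended variance, two-sided, Benjamini-Hochberg adjusted p under 0.05). On simulated data for HF against LF over 10356 genes, 48% of genes changed 1.5-fold and 84% of genes changed 2-fold were recovered, and 7 unchanged genes were called. The changed genes were drawn only from those at higher levels, with the change set on the log2(RPKM + 1) scale. Recovery of low members such as Tgtp1 was not simulated. The members, gene lists and tests were chosen with earlier results of these data known. All 43 members could be named. Of other genes, the rule was at most 4 called per list and comparison, those with the smallest adjusted p, and the partners of members (such as H2-K1 and Psmb5); for 3 lists with 5 called genes the remaining one was added after its values were seen. One item of the gene lists, with the counts that hold it, is not reported here. Per-library values are given for members called in any comparison. Promoter windows and gene positions come from RefSeq GRCm38.p6, and motif searches used Python 3.11.15. Other pseudocounts, filters, scalings, groups in the fit, a replicate block and leaving out libraries were tried.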

Additional observations from a re-analysis of the deposited data

Results flagged for a closer look

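Irf9 drew attention because its CR difference passed the test of a difference between the diets. The interaction was 1.86 on the log2(RPKM + 1) scale (limma adjusted p = 0.0286): LF+CR lay below LF in 3 of 3 libraries, with a difference of -1.53, whereas HF+CR minus HF was 0.33. These values are of the most abundant of 3 Irf9 transcripts. With the transcripts summed the interaction was 0.51 and did not pass (limma adjusted p = 0.35). The call was also lost without any 1 of LF 2, LF 3, LF+CR 1, LF+CR 2, HF 2 or HF+CR 1.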

How the results depend on the processing

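No call among the members changed direction: of 2385 member values under other settings, 1984 stayed on the same side of the threshold and 401 no longer passed. The HF diet average had 29 called members without the filter, 29 without the pancreas libraries, 35 with transcripts summed and 31 to 34 under each other setting. Members called in HF against LF numbered 3, and 1 with a pseudocount of 0.1 RPKM, 0 without the filter on low values, 6 with median-of-ratios scaling, 0 when only the groups compared were fitted, 0 with the replicate block, 0 without the pancreas libraries, 7 without the bile duct libraries, and 0 to 5 leaving out single libraries. LF+CR against LF went from 8 to 4 without the filter, 3 with the 2 groups alone, 3 without the pancreas libraries, 4 without the bile duct libraries and 3 to 14 without single libraries. HF+CR against HF went from 0 to 5 without the bile duct libraries and 0 to 3 without single libraries. HF+CR against LF+CR went from 14 to 8 without the filter, 9 with the groups alone, 2 without the pancreas libraries and 7 to 18 without single libraries. HF+Ex against LF+Ex went from 22 to 8 without the filter, 2 without the pancreas libraries and 2 to 25 without single libraries. The CR average went from 12 to 5 without the filter, 7 with its groups alone, 4 without the pancreas libraries and 6 to 18 without single libraries. The CR by diet interaction went from 1 to 0 without the filter, with transcripts summed, with its groups alone and without the pancreas libraries, and to 0 to 1 without single libraries. With a pseudocount of 0.1 RPKM the median difference of the members rose to 0.92 in HF+CR against LF+CR and 0.95 for the diet average. Without the filter more genes were tested, and leaving out libraries left fewer samples; otherwise the cause was not tested. Replicate numbers did not pair the libraries: same-numbered libraries of different groups correlated from -0.49 to 0.32 in their deviations, and 6 of 18 libraries correlated best with their own number. Beyond HF against LF, the replicate block changed no count by over 1.5 times. Low members such as Tgtp1, mostly under 1 RPKM on LF, are limited by depth.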
